A study of Mus musculus with 12 samples.

Results

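Interferon-stimulated genes were followed in type II alveolar cells, which make lung surfactant, cultured from mice lacking G protein alpha subunits. The list named 38 genes, and 36 of them had a probe set annotated to that gene alone, out of 18193 genes measured. Each gene was read from 1 such probe set, the one with the highest mean over the 12 arrays. Ifi44 and Isg15 had no such probe set and were not analysed here. There were 4 genotype groups of 3 arrays each, and none of them is wild type. They were Gna11 knockout, Gnaq/Gna11 double knockout (both lacking Gna11), Gna12 knockout and Gna12/Gna13 double knockout (both lacking Gna12). All cells were untreated and kept for 7 days on collagen, with keratinocyte growth factor in the medium. The study set out to compare single with double knockout cells. The sources used here do not give age, strain, or whether a deletion was confined to 1 cell type. The labels leave unsaid whether replicates are different mice or cultures, so p-values measure only how these samples vary, possibly for technical reasons. Values are RMA expression values on the log2 scale, and each difference is given on that scale with its standard error (SE) from a limma fit to all 12 arrays.

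Interferons are secreted when a cell detects foreign or misplaced nucleic acid. Type I and type III interferons act through receptors and Janus kinases to assemble a complex that holds STAT2 and IRF9 and binds the interferon-stimulated response element in promoters. Interferon gamma acts through a different promoter sequence, the gamma-activated site. The induced genes encode antiviral enzymes, GTPases, RNA sensors and chemokines, and in the lung both epithelium and resident macrophages express them.

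Genes of the labelled cell type were present, though not alone. Sftpc, the surfactant protein specific to type II cells, lay between 12.78 and 13.38 in all 12 arrays, where the median probe set lay at 5.10. Each targeted gene had 1 probe set whose knockout arrays all lay below all other arrays, out of 7 for Gnaq, 2 for Gna11, 5 for Gna12 and 7 for Gna13. For Gna12 this was a narrow gap, 5.61 to 5.91 in knockout and 5.97 to 6.22 in other arrays. A probe set outside the deleted part of a gene checks nothing, and which ones these are is unknown here. Ager, a marker of type I alveolar cells, lay between 13.18 and 13.51 and Scgb1a1, a marker of airway secretory cells, between 13.12 and 13.28 in all 12 arrays. The probe sets used for Sftpc and Ager are of types that can bind transcripts of several genes. Leukocyte genes were also present. The mean of 20 pan-leukocyte genes ran from 7.64 to 8.18 in Gna11, from 8.59 to 8.64 in Gnaq/Gna11, in Gna12 arrays from 8.64 to 9.24, and across Gna12/Gna13 arrays from 8.19 to 9.03. The Y-linked gene Eif2s3y lay between 3.33 and 3.54 in the Gnaq/Gna11 arrays. In every other group it was at 3.56 or lower in replicate 2 and at 6.91 or higher in replicates 1 and 3. Gnaq/Gna11 and Gna11 cells thus also differ in Eif2s3y, which cannot be fully told apart from genotype in that comparison. A position number in the labels is 2 for the groups lacking Gna11 and 4 for those lacking Gna12, so it cannot be told apart from these genotypes; nor can its letter, which differs between single and double knockouts.

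Cells lacking Gnaq in addition to Gna11 had higher mean values of most interferon-stimulated genes than cells lacking Gna11 alone. Of the 36 measured, 6 rose past an adjusted p of 0.05 in the limma fit (Oas1a, Oas2, Oasl1, Zbp1, Mx1 and Rsad2), 0 fell and 30 did not pass. Of all genes, 1.17% passed as higher and 0.676% as lower in this comparison. The difference was above 0 for 32 of the 36 genes, against 45.4% of all genes, and their median difference was 0.71, against -0.03 over all genes. In 15 of the 36 the Gnaq/Gna11 arrays all lay above the Gna11 arrays, which held for 9.87% of all genes, and likewise 15 were higher at an unadjusted p under 0.05, as were 8.65% of all genes.

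Between Gna12/Gna13 and Gna12 cells 0 of the 36 genes passed in the limma fit, where 0% of all genes passed. At an unadjusted p under 0.05 4 were higher (Oas2, Gbp3, Bst2 and Usp18) and 0 lower, and 2.94% of all genes were higher. The difference was above 0 for 29 of the 36, against 49.9% of all genes, with a median of 0.28. In 6 of the 36 the Gna12/Gna13 arrays all lay above the Gna12 arrays (6.4% of all genes) and in 3, Mx1, Cmpk2 and Samhd1, all below (4.89% of all genes).

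**Figure D1:**
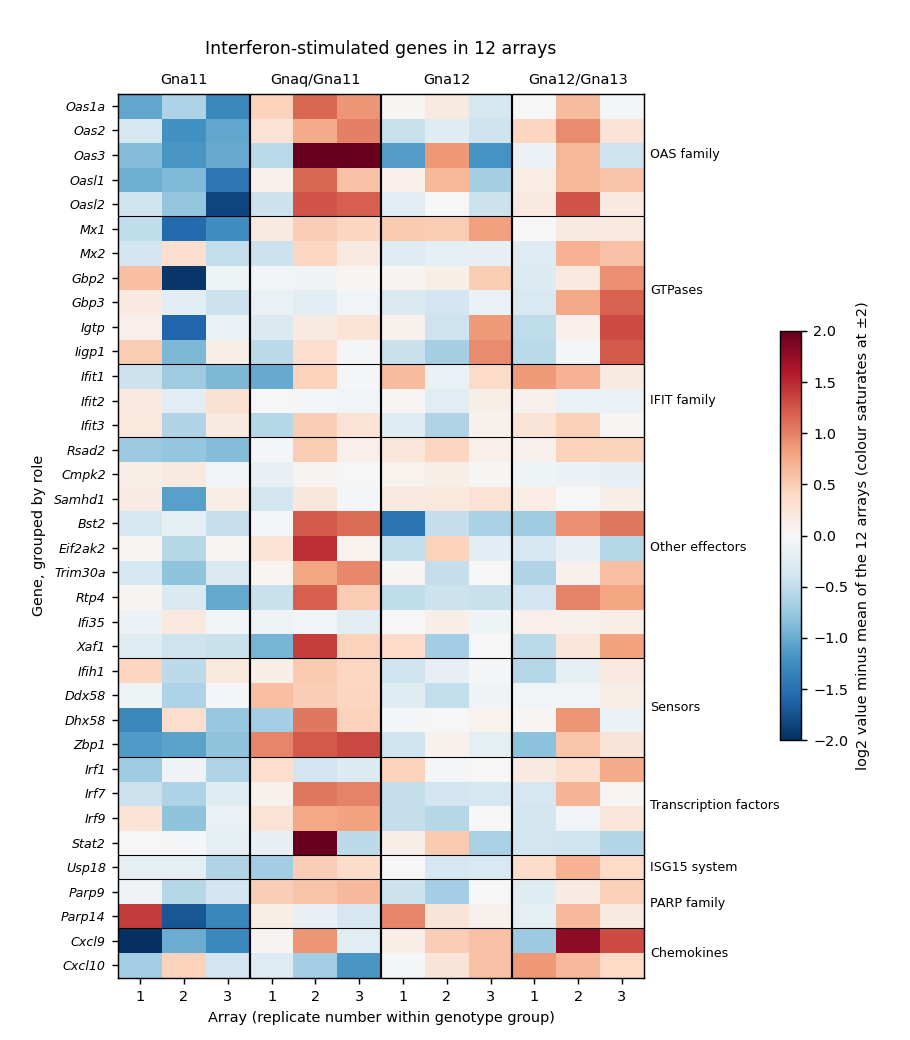
Values of the 36 genes (rows, grouped by role) in the 12 arrays (columns, 3 replicates per genotype), as the log2 value minus the gene's mean over the 12 arrays, with colours saturating at ±2. The Gna11 columns are mostly blue, and within Gnaq/Gna11 and Gna12/Gna13 the column of replicate 1 is paler or bluer than those of replicates 2 and 3.

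The OAS family held the most genes that rose, 3 of 5. These enzymes bind double-stranded RNA and make short adenylate chains that switch on RNase L, while the OAS-like proteins act in other ways. Oas1a read 10.55, 10.97 and 10.30 in Gna11 replicates 1, 2 and 3, and 12.04, 12.73 and 12.47 in the Gnaq/Gna11 replicates. It read 11.61, 11.76 and 11.23 in Gna12, and 11.58, 12.21 and 11.55 in Gna12/Gna13 arrays. The Gnaq/Gna11 arrays thus lay above the Gna11 arrays without overlap, and the Gna12-lacking arrays between them, reaching into the Gnaq/Gna11 range. Oas1a rose by 1.81 ± 0.237 (SE, 3.50-fold, limma adjusted p = 0.00685) from Gna11 to Gnaq/Gna11 cells.

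Oas2 read 7.13, 6.28 and 6.44 in Gna11 arrays and 7.78, 8.23 and 8.50 in Gnaq/Gna11 arrays, a rise of 1.55 ± 0.276 (SE, limma adjusted p = 0.0213). In Gna12 arrays it read 7.04, 7.24 and 7.08, and in Gna12/Gna13 arrays 7.92, 8.43 and 7.77. Both doubles lay above their singles without overlap, although the second difference, 0.92 ± 0.276, did not pass (limma adjusted p = 1.00, unadjusted p = 0.00658). Oasl1, an OAS-like protein known to restrain translation of Irf7, read 8.50, 8.59 and 8.02 in Gna11 arrays and 9.57, 10.62 and 10.06 in Gnaq/Gna11 arrays. Its values were 9.58, 10.14 and 8.82 in Gna12 and 9.62, 10.13 and 10.04 in Gna12/Gna13 arrays. Oasl1 rose by 1.71 ± 0.344 (SE, limma adjusted p = 0.0357) between the groups lacking Gna11.

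Oas3 had the largest fitted difference of the 36 genes and did not pass. It read 4.81, 4.52 and 4.67 in Gna11 arrays but 5.14, 8.16 and 8.08 in Gnaq/Gna11 replicates 1, 2 and 3, a difference of 2.46 ± 0.752 (SE, limma adjusted p = 0.136). The Gna12 arrays read 4.58, 6.55 and 4.48, and the Gna12/Gna13 arrays 5.57, 6.34 and 5.27. Replicate 1 of the Gnaq/Gna11 cells was thus close to the Gna11 arrays. Oasl2 showed the same split, with 7.48 in Gnaq/Gna11 replicate 1 and 9.18 and 9.10 in replicates 2 and 3, beside 6.08 to 7.51 in Gna11 arrays.

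**Figure D2:**
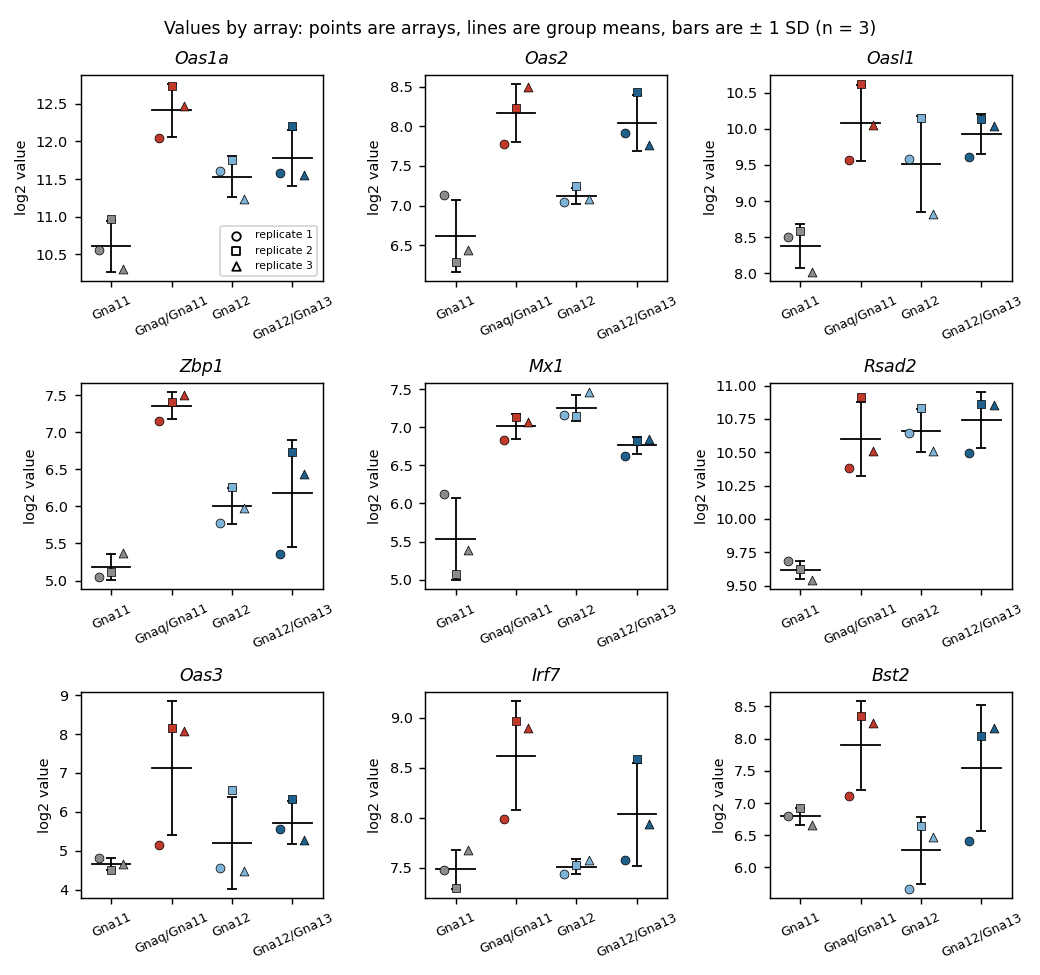
log2 values of 9 genes in each array, with group means (lines) and ± 1 SD (bars, n = 3 arrays) and a marker shape for each replicate number. The upper 6 panels are the genes that rose in Gnaq/Gna11 over Gna11 cells, and Oas3, Irf7 and Bst2 below them show replicate 1 of Gnaq/Gna11 cells (5.14, 7.99 and 7.10) under replicates 2 and 3.

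Among the other effectors Rsad2 alone passed, of 9 measured. Rsad2 encodes viperin, which makes a nucleotide analogue that ends viral RNA chains. Its values were 9.68, 9.63 and 9.54 in Gna11 and 10.38, 10.91 and 10.51 in Gnaq/Gna11 arrays, with 10.64, 10.83 and 10.51 in Gna12 and 10.50, 10.86 and 10.86 in Gna12/Gna13 arrays. Only the Gna11 arrays stood apart, below the other 9, and the rise from Gna11 to Gnaq/Gna11 was 0.98 ± 0.157 (SE, 1.98-fold, limma adjusted p = 0.0152). The probe sets of Rsad2 disagree: a dimmer one differed by 0.46 and the dimmest, with a mean of 3.71, by -0.07, and their mean did not pass (limma adjusted p = 0.237). Cmpk2, the mitochondrial nucleotide kinase encoded next to Rsad2, read 4.98, 5.02 and 4.78 in Gna11 and 4.69, 4.89 and 4.84 in Gnaq/Gna11 arrays. Cmpk2 read 4.92, 4.96 and 4.87 in Gna12 and 4.75, 4.73 and 4.68 in Gna12/Gna13 arrays, near the median level of the arrays throughout.

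Bst2, or tetherin, holds budding virus at the cell surface. It read 6.79, 6.93 and 6.66 in Gna11 arrays and 7.10, 8.35 and 8.24 in Gnaq/Gna11 arrays, a difference of 1.10 ± 0.474 (SE, limma adjusted p = 0.279). In Gna12 arrays Bst2 read 5.67, 6.64 and 6.48, and in Gna12/Gna13 arrays 6.41, 8.04 and 8.17, a difference of 1.28 ± 0.474 (SE, limma adjusted p = 1.00), the largest of the 36 genes in that comparison. Rtp4, a chaperone for some receptors of the cell surface, had the next largest there, 0.93 ± 0.450. Its values were 6.41, 6.49 and 6.47 in Gna12 and 6.53, 7.92 and 7.70 in Gna12/Gna13 arrays, beside 6.98, 6.63 and 5.90 in Gna11 and 6.48, 8.12 and 7.42 in Gnaq/Gna11 arrays. For Bst2 and Rtp4 alike, replicate 1 of each double knockout lay at or near its single knockout and replicates 2 and 3 above it.

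The kinase gene Eif2ak2, whose product PKR stops translation on binding double-stranded RNA, read 5.75, 5.13 and 5.73 in Gna11 and 5.98, 7.18 and 5.78 in Gnaq/Gna11 arrays, and 5.21, 6.17 and 5.50 in Gna12 and 5.37, 5.56 and 5.13 in Gna12/Gna13 arrays. Replicate 2 of the Gnaq/Gna11 cells was the one high array; replicates 1 and 3 lay just above the Gna11 arrays. Ifi35 read 12.52, 12.83 and 12.59 in Gna11 and 12.54, 12.58 and 12.42 in Gnaq/Gna11 arrays, and 12.63, 12.77 and 12.56 in Gna12 and 12.75, 12.73 and 12.76 in Gna12/Gna13 arrays. It was bright in all 12 arrays and differed by -0.13 ± 0.0789 between Gnaq/Gna11 and Gna11 cells; its probe set is of a type that can bind transcripts of several genes. Of the remaining effectors Trim30a differed by 1.07 and Samhd1 by 0.21, without passing.

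Xaf1, a gene that promotes cell death, was read very differently by its probe sets. The brighter one lay between 8.60 and 10.92 in the 12 arrays, and its differences did not pass. The other probe set, singled out after its values were seen, read 10.16, 10.06 and 10.27 in Gna11 and 10.45, 10.86 and 11.11 in Gnaq/Gna11 arrays. In the Gna12 arrays it read 5.04, 4.28 and 6.11 and in the Gna12/Gna13 arrays 3.30, 6.63 and 7.15. In a limma fit to all 34945 probe sets of 1 gene it differed by -5.02 between Gna12 and Gna11 cells (adjusted p = 0.0192), where the brighter probe set differed by 0.26. The arrays lacking Gna11 and those lacking Gna12 also differ in the position number, which cannot be told apart from genotype here.

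**Figure D3:**
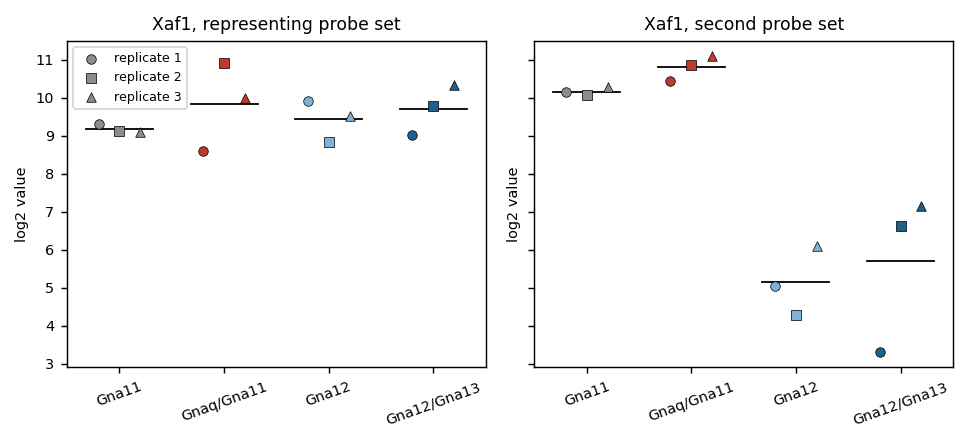
log2 values of the 2 Xaf1 probe sets in each array (points; marker shape gives the replicate number, lines are group means of 3 arrays). The probe set on the left overlaps between the groups, while the one on the right lies at 10.06 or above in the 6 arrays lacking Gna11 and at 7.15 or below in the 6 lacking Gna12.

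Of 6 interferon-induced GTPases Mx1 alone rose. Mx1 blocks replication of influenza and related viruses, and many laboratory mouse strains carry a defective allele. It read 6.13, 5.08 and 5.39 in Gna11 and 6.82, 7.13 and 7.07 in Gnaq/Gna11 arrays, a rise of 1.48 ± 0.246 (SE, 2.78-fold, limma adjusted p = 0.0167). In Gna12 arrays Mx1 read 7.16, 7.14 and 7.46, and in Gna12/Gna13 arrays 6.62, 6.81 and 6.84. The Gna12/Gna13 arrays lay below the Gna12 arrays without overlap, by -0.49 ± 0.246 (limma adjusted p = 1.00). Mx2 differed by 0.24 ± 0.292 between Gnaq/Gna11 and Gna11 cells, at values of 4.05 to 5.24.

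The guanylate-binding and immunity-related GTPases, which attack vacuoles that hold pathogens and are strongly induced by interferon gamma, did not pass. Gbp2 differed by 0.44 ± 0.520, Igtp by 0.60 ± 0.521, Iigp1 by 0.01 ± 0.536 and Gbp3 by 0.02 ± 0.296 between Gnaq/Gna11 and Gna11 cells. The Gbp2 probe set is of a type that can bind several genes, and a dimmer one differed by 0.93 without passing. Replicate 2 of the Gna11 cells was the lowest of the 12 arrays for Gbp2, at 7.24, and for Igtp, at 8.10. Gbp3 read 4.07, 3.66 and 3.45 in Gna11 and 3.74, 3.67 and 3.82 in Gnaq/Gna11 arrays, and 3.59, 3.48 and 3.75 in Gna12 and 3.58, 4.63 and 5.05 in Gna12/Gna13 arrays. All 12 lay below the median level of 5.10.

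The IFIT proteins bind viral RNA. None of the 3 passed in any comparison, and their differences between Gnaq/Gna11 and Gna11 cells ran from -0.11 for Ifit2 to 0.49 for Ifit1. Ifit3 was bright in every group, at 11.28, 10.47 and 11.25 in Gna11, 10.49, 11.55 and 11.35 in Gnaq/Gna11, 10.82, 10.46 and 11.15 in Gna12 and 11.33, 11.55 and 11.09 in Gna12/Gna13 arrays. Its groups overlapped throughout.

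Of 4 nucleic acid sensors Zbp1 rose. Zbp1 binds Z-form nucleic acid and can start necroptosis. It read 5.05, 5.11 and 5.38 in Gna11 and 7.16, 7.40 and 7.50 in Gnaq/Gna11 arrays, with 5.77, 6.26 and 5.98 in Gna12 and 5.36, 6.73 and 6.43 in Gna12/Gna13 arrays. All 3 Gnaq/Gna11 arrays were thus above the other 9, and close together. The rise from Gna11 was 2.18 ± 0.302 (SE, 4.52-fold, limma adjusted p = 0.00769), while a dimmer Zbp1 probe set lay between 5.14 and 5.95 in all 12 arrays and differed by 0.06. The RNA helicase genes Ddx58 (RIG-I), Dhx58 (LGP2) and Ifih1 (MDA5) differed by 0.76 ± 0.189, 0.85 ± 0.468 and 0.31 ± 0.277 without passing. Dimmer Ddx58 probe sets, with means of 4.63 and 4.52, differed by -0.55 and -0.08. Ifih1 read 8.32, 7.37 and 8.11 in Gna11 and 8.01, 8.42 and 8.31 in Gnaq/Gna11 arrays, 7.50, 7.74 and 7.86 in Gna12 and 7.33, 7.72 and 8.10 in Gna12/Gna13 arrays, so each double overlapped its single.

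The transcription factors that carry the signal did not pass, 0 of 4. Irf7, which amplifies interferon alpha production, differed by 1.14 ± 0.304 (SE, limma adjusted p = 0.0917) between Gnaq/Gna11 and Gna11 cells, at 7.99, 8.97 and 8.90 against 7.48, 7.29 and 7.68. Irf9, a DNA-binding partner of STAT2, differed by 0.84 ± 0.293 and Irf1, an early target of interferon gamma, by 0.37 ± 0.266. Stat2 read 5.10, 5.07 and 4.90 in Gna11 and 4.93, 7.31 and 4.57 in Gnaq/Gna11 arrays, and 5.20, 5.62 and 4.44 in Gna12 and 4.73, 4.69 and 4.50 in Gna12/Gna13 arrays. Gnaq/Gna11 replicate 2 was the one high array, and each double overlapped its single.

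Usp18, which strips ISG15 from proteins and dampens the type I receptor, differed by 0.38 ± 0.291 from Gna11 to Gnaq/Gna11 and by 0.71 ± 0.291 from Gna12 to Gna12/Gna13 cells. Parp9, which works with the ubiquitin ligase Dtx3l, differed by 0.91 ± 0.242 and by 0.50 ± 0.242 in the same comparisons, and Parp14 by 0.43 ± 0.642 and -0.22 ± 0.642. None of these passed. The chemokines, which attract T cells bearing Cxcr3, had differences of opposite sign. Cxcl9, mainly a target of interferon gamma, read 3.988, 4.999 and 4.712 in Gna11 and 6.06, 6.88 and 5.77 in Gnaq/Gna11 arrays, with 6.13, 6.48 and 6.57 in Gna12 and 5.26, 7.79 and 7.30 in Gna12/Gna13 arrays. The Gna11 arrays were thus the 3 lowest, and the difference of 1.67 ± 0.554 did not pass (limma adjusted p = 0.167). A dimmer Cxcl9 probe set, with a mean of 4.65, differed by 0.10. Cxcl10 read 6.77, 7.92 and 7.07 in Gna11 and 7.20, 6.77 and 6.30 in Gnaq/Gna11 arrays, and 7.41, 7.72 and 8.04 in Gna12 and 8.33, 8.10 and 7.85 in Gna12/Gna13 arrays. Its difference of -0.50 ± 0.325 between Gnaq/Gna11 and Gna11 cells was the lowest of the 36 genes, and their arrays overlapped.

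**Figure D4:**
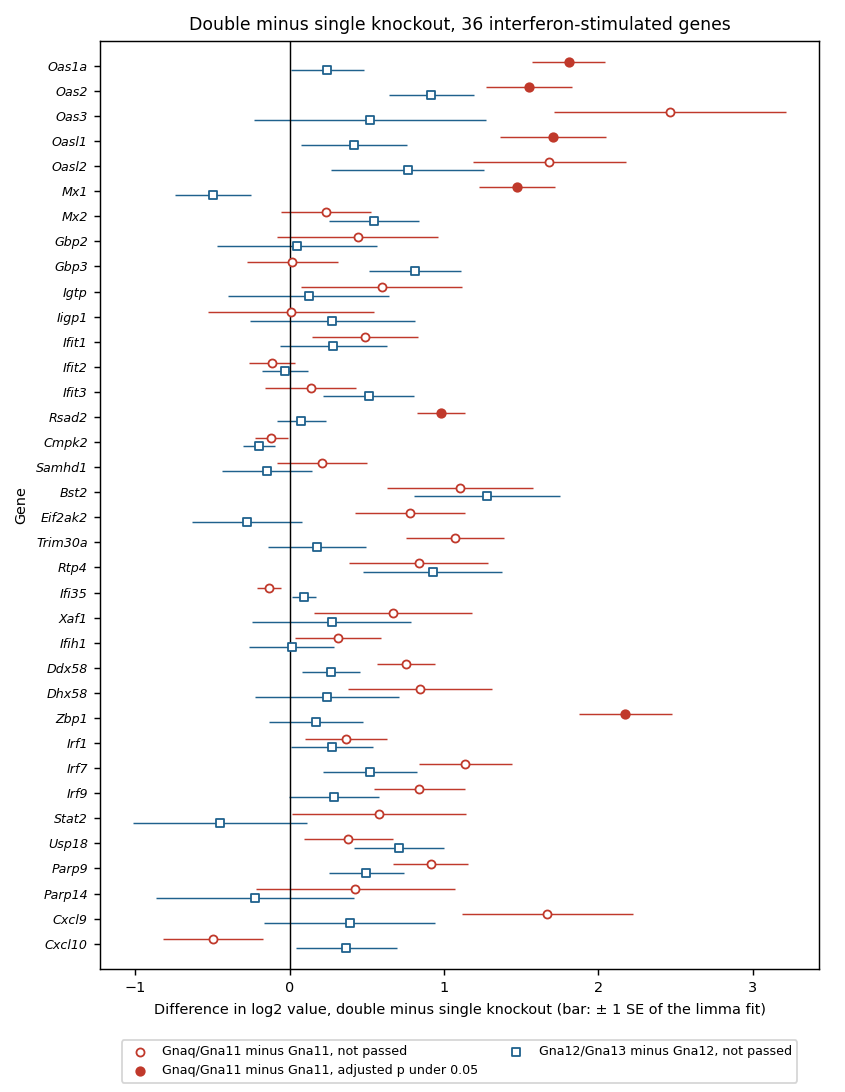
Fitted log2 difference of double minus single knockout for each of the 36 genes (points, with ± 1 SE of the limma fit), for Gnaq/Gna11 minus Gna11 (circles) and Gna12/Gna13 minus Gna12 (squares); filled points passed an adjusted p of 0.05. The 6 filled circles lie between 0.98 (Rsad2) and 2.18 (Zbp1), and no square is filled.

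Promoters of members were searched for the sequences through which type I interferon and interferon gamma act, and some are shown. Whether these sequences had a part in the differences was not tested. Of the 36 genes 26 had a window in the RefSeq promoter table (build GRCm38.p6), which runs from 250 bases before to 50 bases after the start of the gene. The core of the interferon-stimulated response element, searched on both strands as GAAA, any 2 bases and GAAA again, was in the windows of 15 of these 26 genes (57.7%) and of 3.6% of 14452 measured genes with a window. The gamma-activated site, searched as TTCNNNGAA, which reads the same on both strands, was in 8 of the 26 (30.8%) and in 8.6% of the measured genes. A match is a run of letters, not evidence of binding, and 35.0% of 40 other interferon-stimulated genes held the core. The windows of Oas1a, Rsad2, Oasl1 and Ddx58, the members with the smallest adjusted p-values among those with a window, follow from 5′ to 3′ along the gene's strand, with matches to the core in capitals.
Oas1a (chr5:120907476-120907775, minus strand): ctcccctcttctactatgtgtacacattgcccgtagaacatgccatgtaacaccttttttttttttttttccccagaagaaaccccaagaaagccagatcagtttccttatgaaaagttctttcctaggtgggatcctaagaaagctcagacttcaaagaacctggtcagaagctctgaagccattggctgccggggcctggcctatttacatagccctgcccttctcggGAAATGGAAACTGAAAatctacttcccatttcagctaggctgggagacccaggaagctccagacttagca
Rsad2 (chr12:26456403-26456702, minus strand): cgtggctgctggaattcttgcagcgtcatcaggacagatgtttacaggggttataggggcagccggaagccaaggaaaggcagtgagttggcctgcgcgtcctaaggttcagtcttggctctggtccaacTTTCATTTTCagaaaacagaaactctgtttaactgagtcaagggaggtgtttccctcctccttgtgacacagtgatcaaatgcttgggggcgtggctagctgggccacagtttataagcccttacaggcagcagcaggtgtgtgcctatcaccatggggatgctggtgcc
Oasl1 (chr5:114922990-114923289, plus strand): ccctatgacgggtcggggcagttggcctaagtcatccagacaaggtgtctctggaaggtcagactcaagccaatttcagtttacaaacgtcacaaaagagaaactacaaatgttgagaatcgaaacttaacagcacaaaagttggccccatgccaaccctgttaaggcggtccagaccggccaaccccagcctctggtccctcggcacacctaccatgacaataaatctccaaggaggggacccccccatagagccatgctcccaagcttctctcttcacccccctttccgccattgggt
Ddx58 (chr4:40239776-40240075, minus strand): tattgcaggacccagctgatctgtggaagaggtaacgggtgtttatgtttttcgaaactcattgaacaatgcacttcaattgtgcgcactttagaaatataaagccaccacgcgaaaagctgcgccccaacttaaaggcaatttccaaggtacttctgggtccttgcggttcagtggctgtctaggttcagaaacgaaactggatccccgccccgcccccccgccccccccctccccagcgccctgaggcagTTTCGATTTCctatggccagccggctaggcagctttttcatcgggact
Oas1a held 2 overlapping matches just before its start, Rsad2 held 1 match at positions -120 to -111 from its start and Ddx58 1 just after its start. In the Oasl1 window these letters were not found. Nor were they found in the windows of Irf7 and Oasl2, the next members by adjusted p, which are not printed here. Of the 6 genes that rose, 3 had a window and 2 of these held the core, as did 13 of 23 genes with a window that did not pass.

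The single knockouts differed in a few members. Between Gna12 and Gna11 cells 2 of the 36 genes rose (1.74% of all genes passed as higher), 0 fell (1.08% passed as lower) and 34 did not pass. The difference was above 0 for 25 of the 36, against 40.8% of all genes, and the median was 0.29 against -0.06 over all genes. Mx1 was higher by 1.72 ± 0.246 (SE, limma adjusted p = 0.00789) and Rsad2 by 1.04 ± 0.157 (SE, limma adjusted p = 0.0101). The 3 Gna11 arrays thus took part in both comparisons in which genes passed, and these comparisons share them. Cxcl9 had the largest value, 1.83 ± 0.554, and Bst2 the lowest, -0.53 ± 0.474, neither of which passed. All 20 pan-leukocyte genes had a difference above 0 here and 6 of them rose, with a median of 1.09. With their mean as a covariate 0 of the 36 genes passed, and the median of the 36 was -0.13. In that fit 0 of all genes passed, where 513 did without the covariate. Without it, 13 of 15 macrophage genes had a difference above 0 between Gna12 and Gna11 cells and 2 rose, with a median of 1.47. Of 12 type II alveolar genes 10 had a difference below 0 and 1 fell, with a median of -0.40.

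Whether adding the second deletion acted differently in the Gna11 and the Gna12 background was tested as a difference between the 2 differences. None of the 36 genes passed in the limma fit (0.0715% of all genes did), and 5 were higher at an unadjusted p under 0.05, as were 5.22% of all genes. The value was above 0 for 26 of the 36, against 46.9% of all genes. The largest were Zbp1 at 2.00 ± 0.427 (SE, limma adjusted p = 0.106), Mx1 at 1.97 ± 0.348 (SE, limma adjusted p = 0.0656) and Oas3 at 1.94 ± 1.06. The lowest were Cxcl10 at -0.87 ± 0.459 and Gbp3 at -0.80 ± 0.418. A rise past the threshold between the groups lacking Gna11 and none between the groups lacking Gna12 is therefore not shown to be a different response.

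By group, the mean of a gene was lowest in Gna11 cells for 21 of the 36 genes and highest in Gnaq/Gna11 cells for 17 and in Gna12/Gna13 cells for 14. The average over the 36 genes was 7.29, 6.93 and 7.02 in Gna11 replicates 1, 2 and 3, 7.45, 8.20 and 7.91 in Gnaq/Gna11, 7.43, 7.48 and 7.52 in Gna12 and 7.42, 7.97 and 7.90 in Gna12/Gna13. Gnaq/Gna11 replicate 1 was thus at the level of the Gna12 arrays. This replicate was the lowest of its group for 25 genes and replicate 2 the highest for 23. In Gna12/Gna13 cells replicate 1 was the lowest for 23 genes. These counts by group and replicate were not taken over all genes, so they are not shown to be particular to the 36. Replicate 1 of the Gna12/Gna13 cells also had the lowest pan-leukocyte mean of its group, 8.19 beside 8.94 and 9.03, whereas that of Gnaq/Gna11 replicate 1 was 8.60 beside 8.64 and 8.59. The part of these cells in the spread was not tested.

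Of 93 further measured genes of the pathway, 4 rose between Gna11 and Gnaq/Gna11 cells (1.17% of all genes did), 0 fell (0.676% did) and 89 did not pass; the median of the 93 differences was 0.11. Sting1, the adaptor that relays DNA sensing by cGAS, read 6.53, 6.92 and 7.21 in Gna11 and 8.45, 9.05 and 8.72 in Gnaq/Gna11 arrays, a rise of 1.86 ± 0.304 (SE, 3.62-fold, limma adjusted p = 0.0157). Its Gna12 arrays read 7.79, 7.70 and 7.46 and its Gna12/Gna13 arrays 6.93, 8.14 and 7.64, so the Gnaq/Gna11 arrays were the 3 highest; its probe set is also of the type that can bind several genes. Ifi27l2a, a small interferon-induced protein, rose by 2.08 ± 0.280 (SE, limma adjusted p = 0.00719). The galectin genes followed, Lgals9 with a rise of 1.79 ± 0.361 and Lgals3bp, which encodes a galectin partner, with one of 1.07 ± 0.226 (SE, limma adjusted p = 0.0356 and 0.0398). These 3 belong to a list of 51 other interferon-stimulated genes, of which 41 had a difference above 0, against 45.4% of all genes, and the median was 0.20.

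Of the interferon ligands, receptors, kinase and STAT genes and negative regulators, 0 passed in the limma fit between Gnaq/Gna11 and Gna11 cells. At an unadjusted p under 0.05 3 of them, all receptor chains, were higher, as were 8.65% of all genes. The 10 measured interferon ligands had a median difference of -0.15 between Gnaq/Gna11 and Gna11 cells, and Ifnb1 had means of 4.04 and 4.18 in these groups, below the median level. All the ligands but Ifna1 and Ifna5 had a mean over all arrays below that level, so this median says little about ligand expression. Among 6 receptor chains the median was 0.46, with Ifngr2 at 0.94 and Ifnar1 at 0.71. The 4 measured kinase and STAT genes had a median of 0.07 and the 6 negative regulators, such as Socs1, one of 0.06. Besides Sting1, 15 genes of sensing and induction did not pass. From Gna11 to Gna12 cells, Tor3a fell by 1.11 on the log2 scale (limma adjusted p = 0.00639) and Irf2, at values near 3, fell by 0.30. In Gna12/Gna13 against Gna12 cells none of the 93 passed in the limma fit, and 5 were higher and 4 lower at an unadjusted p under 0.05, as were 2.94% and 1.57% of all genes.

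Leukocyte genes and 1 of 2 RNA quality measures also differed between Gna11 and Gnaq/Gna11 cells. From Gna11 to Gnaq/Gna11 cells 19 of 20 pan-leukocyte and 14 of 15 macrophage genes had a difference above 0, with medians of 0.68 and 1.57, and 1 and 5 of them rose. Over all genes, 45.4% had a difference above 0, 1.17% rose and 0.676% fell. The macrophage mean was 7.82 to 8.58 in Gna11, 9.57 to 9.66 in Gnaq/Gna11, in Gna12 arrays 9.18 to 9.75, and across Gna12/Gna13 arrays 8.64 to 9.95. Of 9 conventional dendritic cell genes 3 rose, Ccr7 by 3.19, Ccl22 by 3.01 and Fscn1 by 4.40, while the other 6 differed by -0.06 to 0.45 and the median was 0.34. Of 8 fibroblast genes 2 rose, Col1a1 by 1.57 and Col3a1 by 2.10, with a median of 0.16. Col1a2 did not pass, at means of 9.76 in Gnaq/Gna11 and 7.68 in Gna11 cells, and its arrays did not overlap. A difference below 0 was found for 3 of the 8. Among 6 plasmacytoid dendritic cell genes 5 were lower, 1 of which fell past an adjusted p of 0.05 in the limma fit, with a median of -0.43. Of 11 T and NK cell genes 0 passed, with differences from -1.47 to 2.19. In such bulk samples more cells of a type and more RNA per cell cannot be told apart. Gna12 cells had the highest pan-leukocyte mean, 9.01 ± 0.320 (SD, n = 3) beside 8.61 ± 0.0271 in Gnaq/Gna11 cells. The other way round, the macrophage mean was highest in Gnaq/Gna11 cells, 9.60 ± 0.0546 beside 9.46 ± 0.285 in Gna12 cells. So was the conventional dendritic mean, 6.66 ± 0.119 beside 6.33 ± 0.182. The average over the 36 genes was 7.48 ± 0.0433 in Gna12 and 7.85 ± 0.380 in Gnaq/Gna11 cells. How these lists relate to the 36 genes was not tested here.

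**Figure D5:**
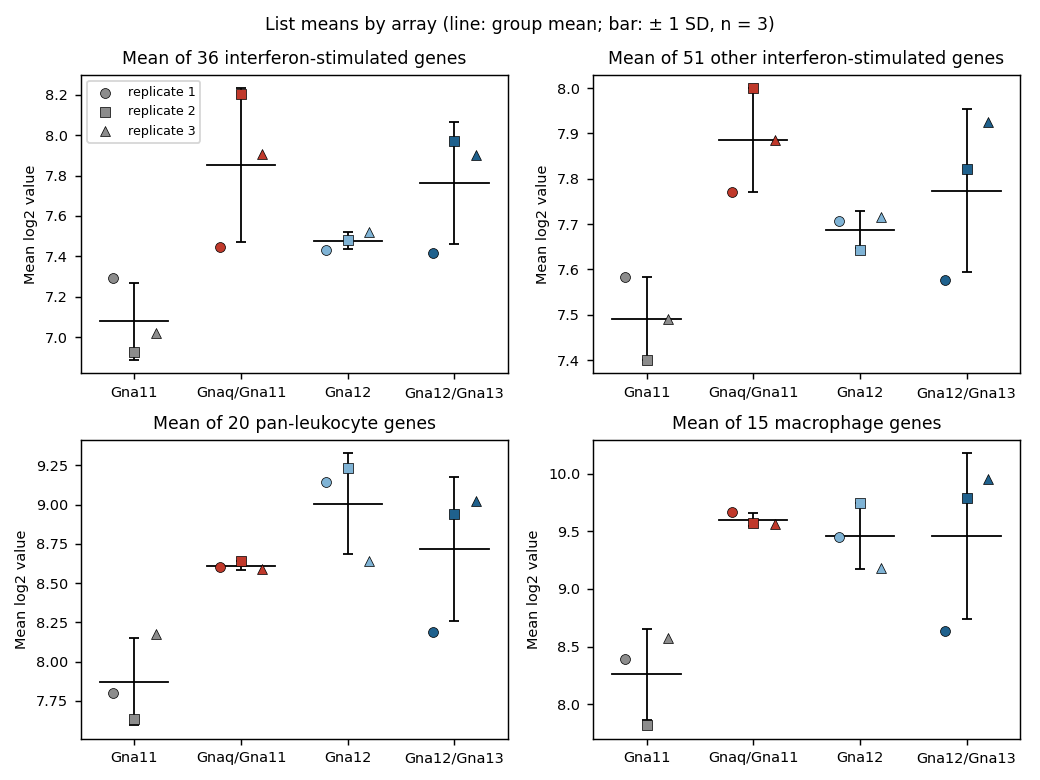
Mean log2 value of 4 gene lists in each array (points; marker shape gives the replicate number), with group means (lines) and ± 1 SD (bars, n = 3 arrays). In the upper panels the Gnaq/Gna11 arrays spread from 7.45 to 8.20 for the 36 genes, while in the lower left panel the pan-leukocyte means of the same arrays lie between 8.59 and 8.64.

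When the pan-leukocyte mean was added to the fit as a covariate, 0 of the 36 genes passed between Gnaq/Gna11 and Gna11 cells, where 5 of all 18193 genes did, and their median difference was 0.40. Under it Oas1a differed by 1.68, Mx1 by 1.46 and Oas2 by 1.47, and Zbp1 by 1.46, Oasl1 by 1.23 and Rsad2 by 0.73. RNA quality was read from the Gapdh controls, whose 3′ probe set exceeds the 5′ one by more where RNA is shorter; this gap averaged 3.70 ± 0.294 (SD, n = 3) for Gna11 and 3.14 ± 0.124 for Gnaq/Gna11 cells, and with it as a covariate 0 of the 36 and 3 of all genes passed. The median difference of the 36 genes in that fit was 0.92, above the 0.71 without the covariate, and Oas1a differed by 1.64, Zbp1 by 1.66 and Mx1 by 1.93. The same gap of the Actb controls was 3.23 ± 0.178 for Gna11 and 3.10 ± 0.319 for Gnaq/Gna11 cells (SD, n = 3), a difference within their spread. The part of either measure in the differences was not tested beyond these fits. With Eif2s3y as a covariate 5 of the 36 genes passed, 4 of them among the 6 named above, and 237 of all genes did. Its part was not tested further. A fit to the 6 arrays of the comparison called 2 of the 36, Oas1a and Zbp1, and 139 of all genes. Without Gnaq/Gna11 replicate 2 there were 3 of the 36 and 102 of all genes, and without Gnaq/Gna11 replicate 3 there were 3 and 105. Without Gnaq/Gna11 replicate 1 there were 9 and 221, the same 6 genes with Oas3, Oasl2 and Irf7. These 3 passed under that 1 of 16 alternatives, and since replicate 1 is the lowest of its group for them, leaving it out raises their difference by construction.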

How the data were processed

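The members and lists were chosen with earlier results of these data known. Total RNA (10 ng per sample) was amplified, labelled with biotin and hybridised to Affymetrix mouse arrays. The deposited values are RMA summaries per probe set, per the submitters' processing notes, read here as log2 values because the sources used here do not give the authors' log base; every fold rests on that reading. Of 45101 probe sets, 34945 were annotated to 1 gene. Older symbols were replaced by those of the same gene number in RefSeq (GRCm38.p6). In limma 3.58.1 (R 4.3.3), lmFit gave each of the 4 groups its own mean over the 12 arrays and eBayes used an intensity trend. Tests were two-sided, with Benjamini-Hochberg adjustment over the 18193 genes. The fit was tested on simulated data. Values per array were given for members that passed in any of 4 comparisons and for the 3 highest and 3 lowest members of each. Promoters were printed for members with the smallest adjusted p among those with a window. Alternatives changed the probe set rule, the filter on low values (5.101), the trend, array weights, samples, replicate block, normalization and covariates. Array medians lay between 5.03 and 5.11, no 2 arrays held identical values, and the number of arrays limits the precision.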

Additional observations from a re-analysis of the deposited data

Results flagged for a closer look

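Mx1 was singled out because its arrays moved in opposite ways in the 2 backgrounds. All 3 Gnaq/Gna11 arrays lay above the Gna11 arrays (difference 1.48) and all 3 Gna12/Gna13 arrays below the Gna12 arrays (difference -0.49). The difference between these differences was 1.97 (limma adjusted p = 0.0656) and did not pass; over 21 alternatives it ran from 1.74 to 2.54, and it passed under 3 of them, with adjusted p-values from 0.0256 to 0.565.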

How the results depend on the processing

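The count of members that passed between Gnaq/Gna11 and Gna11 cells was 6 in the analysis as reported. It was 0 with the pan-leukocyte mean or the Gapdh difference as a covariate, 2 in a fit to the arrays compared, and 3 to 9 when 1 array was left out. Under the other alternatives it was 5 or 6. With Eif2s3y as a covariate it was 5, of which 4 were among the 6 reported. The median difference, 0.71 as reported, was 0.40 with the pan-leukocyte covariate and 0.92 with the Gapdh covariate, so in the latter fit the calls were lost without a smaller median. Without 1 array it ran from 0.46 (without Gnaq/Gna11 replicate 2) to 0.93. All genes called numbered 335 as reported, 174 with array weights and 139 with the arrays compared. Oas1a and Zbp1 passed under 14 of 16 alternatives, Rsad2 under 12, Mx1 under 11, Oas2 under 9 and Oasl1 under 6. Between Gna12 and Gna11 cells the count, 2 as reported, was 1 with the mean of probe sets. It was 0 with the pan-leukocyte or Gapdh covariate, where 0 of all genes passed. With the arrays compared it was 0 too, where 22 of all genes passed. Without 1 array it was 1 (without Gna12 replicate 2) to 3 (without Gna11 replicate 1 or Gna12 replicate 3). The median, 0.29, was -0.13 with the pan-leukocyte covariate and 0.17 without Gna11 replicate 2. The difference between differences, 0 as reported, gave 1 member (Mx1) with the mean of probe sets and with the filter on low values, and 0 to 1 without 1 array; its median was 0.12 with the pan-leukocyte and 0.77 with the Gapdh covariate, and 0.27 without Gna11 replicate 2, against 0.44. The count between Gna12/Gna13 and Gna12 cells was 0 under every alternative run, and its median, 0.28, was 0.14 without Gna12/Gna13 replicate 3, 0.18 without Gna12 replicate 2 and 0.47 without Gna12/Gna13 replicate 1. No value that passed changed sign. The causes of these changes were not tested.

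Same-numbered arrays of Gnaq/Gna11 and Gna11 cells correlated at 0.00943 to 0.0597 in their deviations from the group means, those of Gna12/Gna13 and Gna12 cells at -0.0137, 0.271 and 0.196, and those of Gna12 and Gna11 cells at 0.0182, 0.198 and 0.142. No comparison had all 3 above 0.1, so the numbers were not taken as pairs. With the replicate block the counts were 6, 0 and 3 in the first 3 comparisons and 1 (Oas1a, limma adjusted p = 0.037) for the difference between differences.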
